A study of Mus musculus with 2 samples.

Results

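The TGF-beta ligands, receptors and SMADs described here are 10 genes: the ligands Tgfb1, Tgfb2 and Tgfb3, the latency protein Ltbp1, the receptors Tgfbr1 and Tgfbr2, and the signal transducers Smad2, Smad3, Smad4 and Smad7. They were taken by gene name, as every non-control probe that carries one of these names on both arrays, which gave 18 of the 55681 probes and 10 of 35018 gene names. Of the 18 probes, 16 were well above background on both arrays, and each of the 10 genes had at least 1 such probe. The samples were skeletal muscle from male mice of the strain CD2F1/Slc, 11 weeks old, in 2 groups of 1 array each. The control mice were injected with PBS, and the C26 mice received colon 26 carcinoma cells under the skin (1000000 cells in 100 µL of PBS), which is used to model cachexia, a loss of muscle and fat in tumour bearers. Which muscle was taken, how many days after implantation, and whether RNA of several mice was pooled are not stated in the labels.

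With 1 array per group there is no replicate and no test, and every value below describes these 2 arrays. Signals are given on a scale on which the 75th percentile of each array's probes is 100. The error beside a log2 ratio (C26 minus control) is the scanner software's error of the spots and leaves out the spread between animals. Its median over measured genes was 0.20. A gene is called measured where the scanner marked its brightest probe as well above background in both muscles, and 19767 gene names were. All 10 skeletal muscle markers (among them Ckm, Acta1 and Myh4) were measured and none differed by 1.5-fold, ranging from -0.32 (Mylpf) to 0.22 (Myh2). Of 8 epithelial and carcinoma markers 5 were measured, from Krt19 at -0.84 to Lgals4 at 0.58, and Krt8, Epcam and Cdx2 were not well above background on either array.

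TGF-beta ligands are secreted in a latent form, held by their own propeptide and tied to the extracellular matrix by latent TGF-beta binding proteins such as LTBP1. Once released, the ligand binds TGFBR2, which activates TGFBR1, and TGFBR1 phosphorylates SMAD2 and SMAD3, which enter the nucleus with SMAD4. SMAD7, whose gene the pathway itself induces, blocks the receptors and so closes a feedback loop. In muscle the pathway is known for driving matrix deposition and for restraining myoblast differentiation.

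The sequences of 3 probes are shown because they give the stretches from which some of the ligand and receptor values below were read. Those of the other ligand and receptor probes are not shown. The Tgfb1 probe (chr7:26489877-26489936, mm9, plus strand) and the upstream Tgfb2 probe (chr1:188449333-188449392, mm9, minus strand) cover related stretches of their ligands. Capitals mark the bases that are identical where the pair overlaps without gaps, 28 of 41 positions.
Tgfb1: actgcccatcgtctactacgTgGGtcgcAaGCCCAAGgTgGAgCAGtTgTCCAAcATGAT
Tgfb2: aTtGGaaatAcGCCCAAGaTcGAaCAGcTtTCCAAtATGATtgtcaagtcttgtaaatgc
Whether either transcript also binds the other probe was not tested. The upstream Tgfbr2 probe (chr9:115999496-115999555, mm9, minus strand) is open for 19 codons in its first frame up to a stop codon, in capitals; whether this is the receptor's own stop was not tested.
Tgfbr2: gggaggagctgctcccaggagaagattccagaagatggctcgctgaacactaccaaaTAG
The other Tgfbr2 probe lies 2341 bases further along the same transcript. These 2 probes gave ratios of opposite sign, as described below.

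Smad7 was the member gene that differed most between the arrays by its brightest probe, 1.82-fold higher in the C26 muscle. The ligand Tgfb2 was lower in C26 with both of its probes, and Tgfb1, Tgfb3, Smad2 and Smad3 differed little. Of the 10 member genes, 1 was at least 1.5-fold higher and 0 were 1.5-fold lower in C26, against 4.36% and 4.82% of all measured genes. None passed 2-fold in either direction, against 1.24% higher and 1.16% lower over all measured genes. The median log2 ratio of the 10 genes was -0.04, beside 0.04 over all measured genes, and 5 genes lay on each side of 0.

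**Figure D1:**
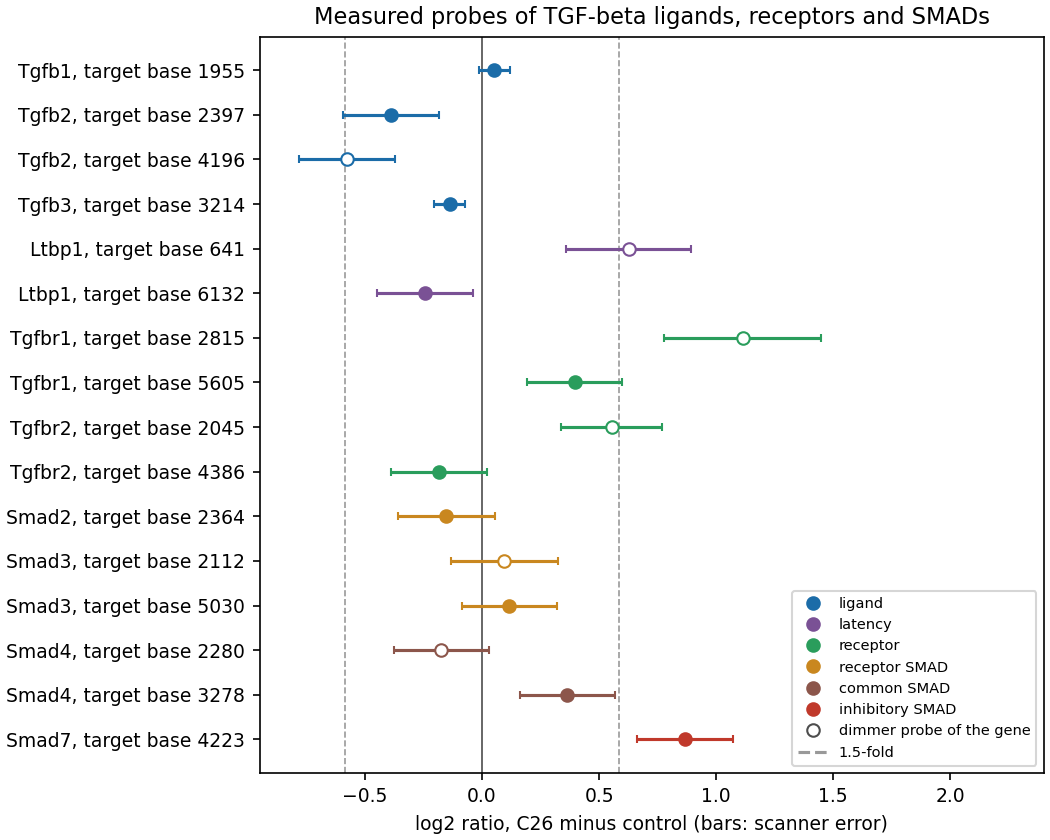
Log2 ratio (C26 minus control) of the 16 measured member probes, ordered by role, with the scanner error as bars. Filled points are the brightest probe of a gene, open points its dimmer probe, numbers beside a gene are the first base of the probe in its target, and dashed lines mark 1.5-fold. Smad7 at 0.87 is the only filled point outside the lines, and the open points of Tgfbr1 and Ltbp1 lie outside them at 1.11 and 0.63.

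Tgfb1, the most studied isoform, stood at 45.2 in control and 46.9 in C26 muscle, a log2 ratio of 0.05 (error 0.07). Its probe was printed in 10 spots per array. The spots ran from 40.5 over a median of 46.1 to 50.4 in control muscle, and from 39.8 over 47.8 to 51.9 in C26 muscle. The ranges overlapped almost fully, with the C26 spot higher at 6 of the 10 positions and lower at 4. The sign of the Tgfb1 ratio was not settled, as it was -0.01 with the 75th percentile taken over detected probes.

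Tgfb3 (chr12:87397804-87397863, mm9) was also printed in 10 spots per array and stood at 1782 in control and 1618 in C26 muscle. The control spots ran from 1660 over 1781 to 1873, and the C26 spots from 1504 over 1637 to 1669. The C26 spot was lower at all 10 positions, and 7 of the 10 C26 spots lay below every control spot. The log2 ratio was -0.14 (error 0.06). The difference exceeded the standard deviation between copies (0.05 log2 units on each array) but was small, and the ranges of the copies overlapped. With quantile normalization and with loess the ratio was -0.23. Copies of a spot share 1 RNA sample, and the spread between mice is not in these figures.

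**Figure D2:**
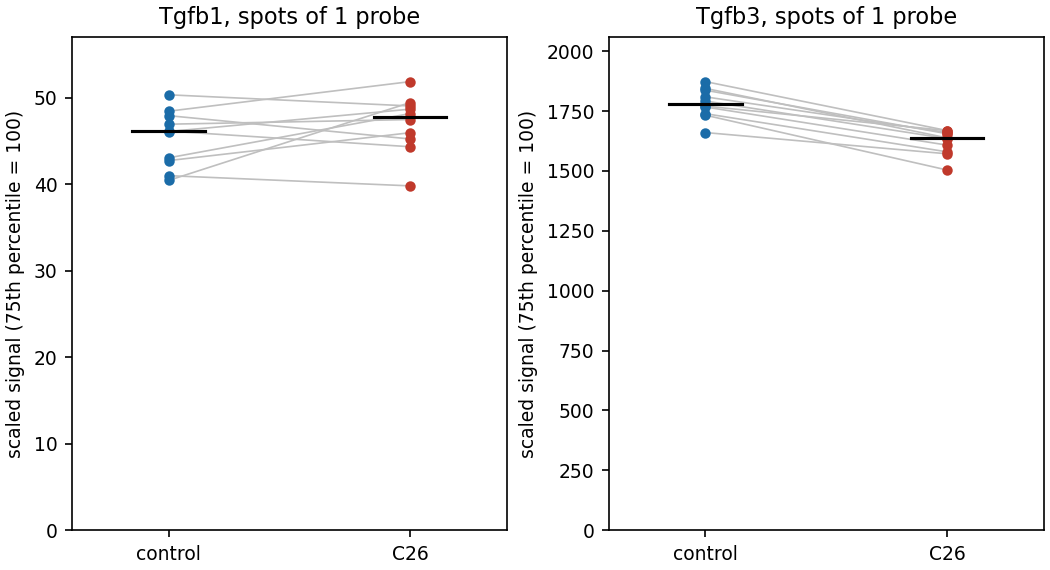
Scaled signal (the array's 75th percentile is 100) of the 10 spots that carry the Tgfb1 probe and the 10 that carry the Tgfb3 probe, with lines joining the same position on the 2 arrays and bars at the medians. The Tgfb1 spots overlap, with medians of 46.1 and 47.8, and each Tgfb3 spot is lower on the C26 array, with medians of 1781 and 1637.

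Tgfb2, the isoform linked to development and to mesenchymal cells, was measured by 2 probes on 1 transcript. The upstream probe, whose sequence is shown above, stood at 783 in control and 598 in C26 muscle, 1.31-fold lower at a log2 ratio of -0.39 (error 0.20). The other probe (chr1:188447534-188447593, mm9, 1799 bases further along the transcript) stood at 237 and 159, 1.49-fold lower at -0.58 (error 0.20). Both probes were lower in C26, by more than their errors, and differed from each other by 0.19, less than the error of that difference (0.29). The ratio of the downstream probe was just short of 1.5-fold and passed it, at -0.61 to -0.64, under 5 of the 6 other scalings. Normexp background correction gave -0.52. Tgfb2 was thus the ligand with the largest difference between the arrays, whichever of its probes is taken.

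Ltbp1, which carries latent TGF-beta into the matrix, had 2 probes that disagreed. The brighter probe (chr17:75790530-75790589, mm9) stood at 149 in control and 125 in C26 muscle, a log2 ratio of -0.24 (error 0.21). The probe for another transcript model (chr17:75446945-75447004, mm9), 343585 bases upstream in the genome, was dim, at 17.8 and 27.4, and gave 0.63 (error 0.27), 1.54-fold higher. Of the 3766 measured probes of like signal (within 0.5 log2 units of its mean), 11.8% had a larger ratio in either direction. With normexp correction that probe gave 0.30, and it was also short of 1.5-fold with median scaling (0.58) and with the percentile over detected probes (0.57).

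The type I receptor Tgfbr1 was higher in C26 with both of its measured probes. The brighter probe (chr4:47427736-47427795, mm9) stood at 372 in control and 489 in C26 muscle, 1.32-fold higher at a log2 ratio of 0.40 (error 0.20). The dimmer probe (chr4:47424946-47425005, mm9), 2790 bases upstream in the same transcript, stood at 9.76 and 21.1, 2.16-fold higher at 1.11 (error 0.34). It was the member probe with the largest ratio, and 2.41% of 3774 probes of like signal had a larger one. Normexp correction, which adds an offset of 50 and draws dim probes toward a ratio of 1, gave 0.40 for it. Another 2 Tgfbr1 probes, for other transcript models, were not well above background on either array, with signals of 2.52 and 1.55 in control and 5.28 and 1.21 in C26.

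Tgfbr2, the receptor that binds the ligand first, gave ratios of opposite sign. Its brighter probe (chr9:115997155-115997214, mm9) stood at 1036 in control and 912 in C26 muscle, a log2 ratio of -0.18 (error 0.20), within its error of 0. The upstream probe stood at 36.1 and 53.0, 1.47-fold higher at 0.55 (error 0.21). The sign of each probe was the same under all 6 other scalings, from -0.27 to -0.16 for the brighter and from 0.35 to 0.57 for the dimmer, so the direction for Tgfbr2 depended on the probe.

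Smad2 and Smad3, the SMADs that the receptors phosphorylate, lay within their errors of 0. Smad2 (chr18:76464903-76464962, mm9) stood at 88.2 in control and 79.3 in C26 muscle, a log2 ratio of -0.15 (error 0.21). Smad3 stood at 2712 and 2940 with its brighter probe (chr9:63494574-63494633, mm9), a log2 ratio of 0.12 (error 0.20), and at 25.6 and 27.4 with the other (chr9:63497492-63497551, mm9), a ratio of 0.10 (error 0.23). These Smad3 probes lie 2918 bases apart on the transcript and differed by 0.02. Smad3 was the member whose probes agreed most closely.

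Smad4, the partner shared by all signalling SMADs of the family, gave opposite signs. Its brighter probe (chr18:73798670-73798729, mm9) stood at 1439 in control and 1853 in C26 muscle, a log2 ratio of 0.36 (error 0.20). The probe 998 bases upstream (chr18:73799668-73799727, mm9) stood at 871 and 772, a ratio of -0.17 (error 0.20). Both were bright, and the gap of 0.54 exceeded its error of 0.29.

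Smad7, the inhibitory SMAD, was measured by 1 probe (chr18:75555371-75555430, mm9) in 1 spot per array. It stood at 88.8 in control and 162 in C26 muscle, a log2 ratio of 0.87 (error 0.21). The difference exceeded its spot error, and 3.69% of 3198 probes of like signal had a larger ratio in either direction. Across the 6 other scalings it lay between 0.71 and 0.86, each past 1.5-fold. No other probe carried the name Smad7, so the value rests on 1 spot per array.

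Counted by probe, 3 of the 16 measured member probes were at least 1.5-fold higher in C26 (Smad7, the dim Tgfbr1 probe and the dim Ltbp1 probe) and 0 were 1.5-fold lower, against 4.48% and 4.86% of all 26781 measured probes. With normexp correction 1 member probe, that of Smad7, was 1.5-fold higher. Past 2-fold was 1 of 16, the dim Tgfbr1 probe, against 1.16% of all probes that were 2-fold higher and 1.14% that were 2-fold lower.

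Exactly 2 probes measured each of 6 member genes, and in 4 of the 6 the log2 ratios of the pair were at least 0.5 apart, against 12% of all 3747 genes with exactly 2 measured probes. The gaps were 0.87 for Ltbp1, 0.74 for Tgfbr2, 0.72 for Tgfbr1 and 0.54 for Smad4, each beyond the error of the difference, and 0.19 for Tgfb2 and 0.02 for Smad3. The median gap over all such genes was 0.15. The pairs of Ltbp1, Tgfbr2 and Smad4 had opposite signs, 3 of 6, against 30.5% of all genes with 2 measured probes. With normexp correction 1 of the 6 pairs, that of Tgfbr2 at 0.51, stayed at least 0.5 apart, and 3.34% of all genes did. The count stayed at 4 with quantile normalization, with loess and with the deposited table, whose values nearly equal quantile-normalized ones. Median scaling and the percentile over detected probes shift all probes of an array alike, so they cannot change a gap.

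**Figure D3:**
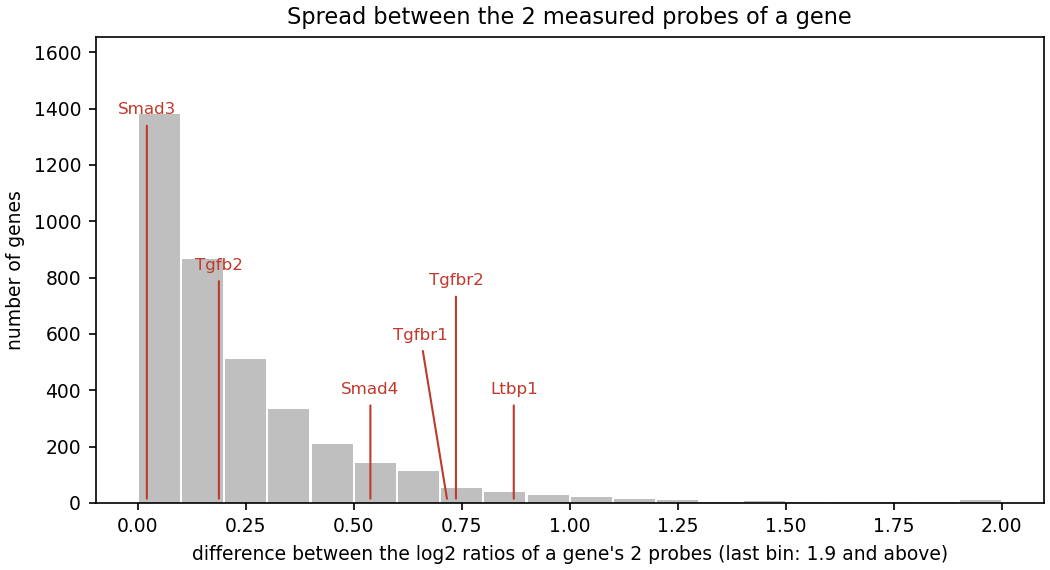
Number of genes (grey bars) by the difference between the log2 ratios of their 2 measured probes, over 3747 genes, with the 6 member genes marked in red. Smad3 at 0.02 and Tgfb2 at 0.19 lie among the bulk, and Smad4, Tgfbr1, Tgfbr2 and Ltbp1, from 0.54 to 0.87, lie in the tail.

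Genes that hold TGF-beta latent, release it or bind it in the matrix were mostly lower in the C26 muscle. Of 24 listed genes 22 were measured, and 15 of these had ratios below 0. Their median log2 ratio was -0.35, beside 0.04 over all measured genes. At least 1.5-fold lower were 6 of the 22 (27.3%, against 4.82% of all measured genes), and 1 was higher (4.36% of all genes). Fbn1 (fibrillin-1), the microfibril protein to which latent TGF-beta binding proteins attach, stood at 378 in control and 108 in C26 muscle, 3.50-fold lower at -1.81 (error 0.20). Ltbp2, a family member that binds fibrillin, stood at 55.8 and 20.9, 2.67-fold lower at -1.42 (error 0.22), and at -0.88 with normexp correction. Bmp1, a protease that cuts procollagens and LTBP1, stood at -0.76 with its brightest probe, and its other probes gave -0.37 and -0.03. Also past 1.5-fold were the protease Mmp2 at -0.71, the collagen-binding proteoglycan Fmod at -0.62 and the proprotein convertase Pcsk6 at -0.59. The related binding proteins Ltbp4 and Ltbp3 had -0.31 and 0.05, and Ltbp3 was below 0 under 4 of the 6 other scalings. At the other end stood Plg (plasminogen) at 1.03 (error 0.36), a dim probe that gave 0.37 with normexp correction, the matrix protein Emilin1 at 0.58 and the integrin subunit Itgb5 at 0.35.

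Of 22 listed genes that act on the receptors, 21 were measured, with a median of 0.07. At least 1.5-fold higher were 2 (9.52%, against 4.36% of all measured genes) and 0 were lower (4.82% of all genes). Ppp1r15a (GADD34), a phosphatase subunit of the stress response that can also dephosphorylate TGFBR1, stood at 653 in control and 1157 in C26 muscle, 1.77-fold higher at 0.83 (error 0.20). Hgs, an endosomal sorting protein, had 0.68 (error 0.20) and 0.75 with its other probe. With quantile normalization it had 0.58, short of 1.5-fold. Tgfbrap1, which binds the receptors, stood at 0.42, and the lowest were Cd109 at -0.29, Cav1 at -0.23 and Dab2 at -0.22. The ubiquitin ligases Smurf1 and Smurf2, which SMAD7 brings to the receptors, stood at 0.10 and 0.04.

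Among SMAD partners and further SMADs, 20 of 22 genes were measured, with a median of 0.13. At least 1.5-fold higher was 1 and lower was 1, each 5% of the list, near the 4.36% and 4.82% of all measured genes. Tgif1, a corepressor of SMAD2 and SMAD3, stood at 201 in control and 459 in C26 muscle, 2.29-fold higher at 1.19 (error 0.20), and between 1.06 and 1.19 under all scalings. Skil (SnoN), another SMAD corepressor, printed in copies, had 0.54 (error 0.07), and the corepressor Ncor1 had 0.35, with its other probes between -0.08 and 0.49. Runx1, a transcription factor that works with SMADs, was the lowest at -0.71 (error 0.23), and at -0.39 with normexp correction. The dim Foxh1 probe had -0.53 (error 0.40), and Zeb2 had -0.22 with its brighter probe and 0.08 with the other. Smad6, the inhibitory SMAD of the BMP branch, stood at 0.22 (error 0.21), next to the 0.87 of Smad7.

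Genes that TGF-beta is known to induce went both ways. Of 33 listed genes 32 were measured, with a median of -0.24. At least 1.5-fold lower were 11 (34.4%, against 4.82% of all genes) and 4 were higher (12.5%, against 4.36%). Past 2-fold were 9 lower (28.1%, against 1.16%) and 2 higher (6.25%, against 1.24%). The 9 were the collagen genes Col3a1, Col1a1, Col5a1 and Col1a2, at -2.00, -1.81, -1.52 and -1.45, the inhibitor Timp1 at -1.91, the collagen crosslinker Loxl2 at -1.47, and the matrix genes Ltbp2, Postn and Cilp at -1.42, -1.26 and -1.05. These last 3 were short of 2-fold under at least 1 other scaling, at -0.88, -0.94 and -0.93 where they were smallest. With a minimum signal of 100 the count past 1.5-fold lower was 9. Smaller ratios in the same direction were those of Adam19 at -0.90 and Fn1 (fibronectin) at -0.87. Highest was Cdkn1a (p21), an inhibitor of the cell cycle, which stood at 164 in control and 594 in C26 muscle, 3.62-fold higher at 1.85 (error 0.06). Klf10 (TIEG1), an early TGF-beta response gene, stood at 586 and 1368, 2.33-fold higher at 1.22 (error 0.20), and Id1 had 0.88. Hbegf, a growth factor, had 0.60 and fell short of 1.5-fold under each of the 6 other scalings (lowest 0.54). The count of 4 was therefore 3 under each of them. Other widely used reporter genes of the pathway stood between these, with Ccn2 (CTGF) at 0.34 and Pmepa1 at 0.29, each past its error, and Tgfbi at -0.28.

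**Figure D4:**
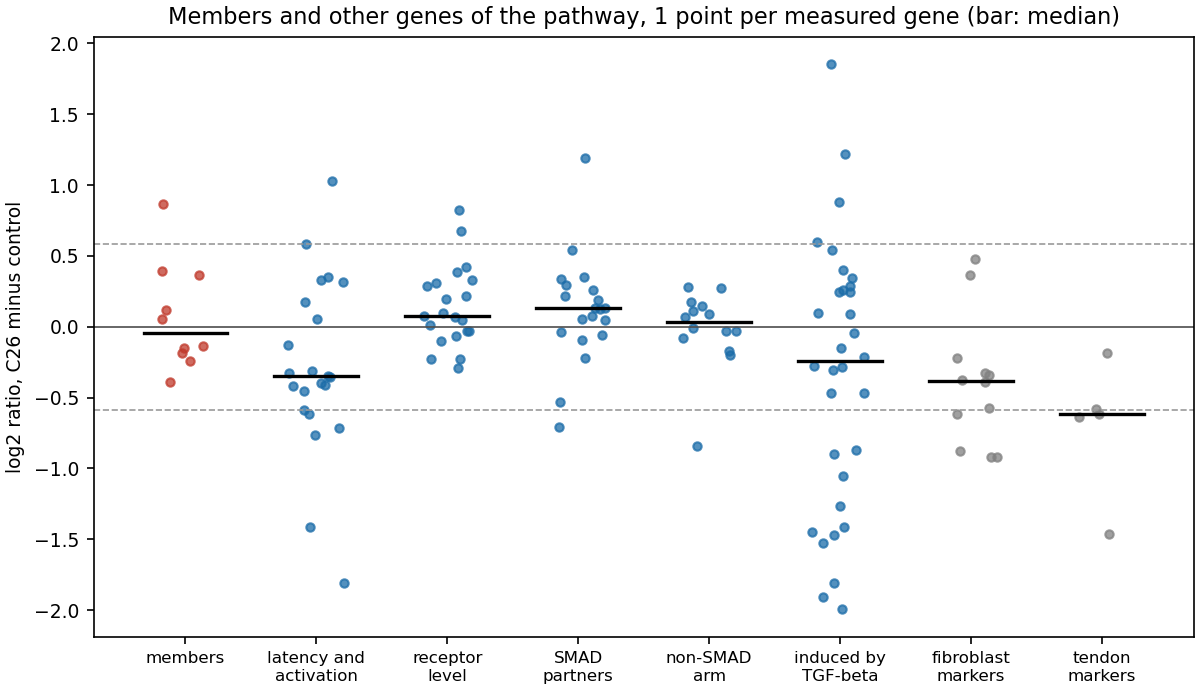
Log2 ratio (C26 minus control) of each measured gene, for the 10 members, 5 lists of other pathway genes and the fibroblast and tendon markers, with black bars at the medians and dashed lines at 1.5-fold. The members lie between -0.39 and 0.87, and the induced genes spread from -2.00 to 1.85.

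Of 12 fibroblast markers, all measured, 4 were at least 1.5-fold lower (33.3%, against 4.82% of all genes) and 0 higher. Ratios below 0 were found for 10 of the 12, beside 8610 of the 19767 measured genes. Their median was -0.38, and their summed scaled signal was 49976 in control and 40114 in C26 muscle. Dcn alone gave 41030 and 32779 of these sums. The fibroblast markers ran from Cd248 at -0.92 to Ly6a at 0.48. The 5 tendon markers ran from Tnmd at -1.46 to Scx at -0.18 (error 0.20), 3 of them at least 1.5-fold lower, with a median of -0.62 and summed scaled signals of 10390 in control and 7038 in C26. All 9 measured of 10 macrophage markers were below 0, from Cd68 at -1.35 to C1qc at -0.05, with a median of -0.17 and sums of 3211 and 2452. All 10 endothelial markers were above 0, by their brightest probes, from Kdr at 0.01 to Cldn5 at 1.30, with a median of 0.38 and sums of 9001 and 12111, although Kdr, Cdh5 and Emcn were below 0 under some of the other scalings. The other probe of Kdr stood at 680 and 438, a log2 ratio of -0.63 (error 0.06), past 1.5-fold lower. The 6 measured erythroid markers of 9 had a median of 1.52 and sums of 132449 and 255263, with Slc4a1 highest at 2.43, Alas2 at 2.31, Hbb-b2 at 1.66, Hba-a1 at 1.37 and Bpgm lowest at 0.23. Of 7 neutrophil markers 5 were measured, with a median of 0.36 and sums of 12820 and 11194. Csf3r alone gave 12624.8 and 10516.5 of these sums. Among the 5 markers S100a8 at 2.46 and S100a9 at 2.35 were the highest and Csf3r at -0.26 the lowest. The 8 mural markers ran from Cspg4 at -0.64 to Des at 0.36, with a median of -0.07. Of 8 lymphocyte markers 4 were measured, with Cd4 highest at 0.22 and a median of 0.05. Of 10 markers of platelets, cells rich in TGF-beta 1, 6 were measured, with Treml1 highest at 1.12 and sums of 914 and 938. Pf4 alone gave 682 and 608 of these sums. Gp9, another platelet marker, was well above background in C26 muscle alone, with signals of 8.54 in control and 43.7 in C26. The observed ratio was 5.12-fold, a log2 ratio of 2.36 that fell to 0.85 where it was smallest among the scalings. In whole muscle, fewer cells of a type and less RNA per cell cannot be told apart, and the part of these cells in the ratios of the members and of the matrix genes was not tested. Dcn belongs to the latency and the fibroblast lists, Fmod to the latency and the tendon lists, and Ltbp2, Skil and Pmepa1 to the induced list and another.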

How the data were processed

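RNA of 1 control and 1 C26 muscle sample was labelled with Cy3 and read on 1-colour arrays. The deposited scanner files hold spot intensities on a linear scale. Per the file headers they were made by Agilent Feature Extraction 10.7.1.1 (the submitters' processing notes list 9.5.1.1), with spatial and multiplicative detrending and a surrogate for spots too low to measure (31.9% of control and 25.6% of C26 spots). A deposited table of intensities per probe served as an alternative; 99.8% of its values on each array lay within 0.01 log2 units of quantile-normalized processed signals, and no label says how the authors made it.

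Non-control spots without outlier flags were averaged per probe on the log2 scale, and each array's 75th percentile (262 for control and 249 for C26) was subtracted. No spot was saturated. Well above background were 50.4% and 53.8% of spots. The brightest probe stood for a gene. Of the probes, 27235 were named through accessions of the RefSeq gene table (GRCm38.p6, names only), the others as in the files. Probe positions are given on mm9, as the files hold them. For Gp9, dim in control, the fold used its own control signal, which was higher than the lowest signal well above background on that array. As no test was possible, genes were counted past 1.5-fold and 2-fold. Named beside the members are the 3 highest and 3 lowest genes of each pathway list, all past 2-fold, the highest and lowest markers, and, chosen after their values were seen, Mmp2, Fmod, Pcsk6, Ltbp3, Ltbp4, Smurf1, Smurf2, Smad6, Hbegf, Adam19, Fn1, Ccn2, Pmepa1, Tgfbi, Map3k7 and the examples of muscle and carcinoma markers. Some listed genes are not reported here by name. Members and lists were chosen with earlier results of these data known. The scaling was tested on simulated data. Alternatives were normexp with offset 50, quantile, median and loess (span 0.3) normalization, the percentile over detected probes, the deposited table, no filter or a minimum signal of 100, and the mean over probes. Python 3.11.15, pandas 2.3.3, statsmodels 0.14.6 and R 4.3.3 with limma 3.58.1 were used.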

Additional observations from a re-analysis of the deposited data

How the results depend on the processing

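No paired analysis was possible because each group has 1 array. Of 96 values of the 16 measured member probes under the 6 other scalings, 91 moved by less than their spot error. The exceptions were the dim probes of Ltbp1 and Tgfbr1 with normexp (0.30 and 0.40) and Tgfb3, at -0.23 with quantile normalization, loess and the deposited table. Median scaling and the percentile over detected probes each move every ratio by 1 constant, which was below all of these errors. The errors of Tgfb1 and Tgfb3 (0.07 and 0.06) are smaller because they were averaged over 10 spots, so these probes pass theirs more easily. Tgfb1 was the one member probe whose sign turned, at -0.01 with the percentile over detected probes. With the mean over probes, Ltbp1 and Tgfbr2 each stood at 0.19, above 0, and Smad4 stood at 0.10, against 0.36 with its brightest probe. The median over the members lay between -0.10 and 0.10, and was above 0 only with the mean over probes. The count of member probes 1.5-fold higher, 3, was 1 with normexp, 1 with the minimum signal of 100, 4 with no filter, and 2 with median scaling and with the percentile over detected probes, where the dim Ltbp1 probe fell short; the count lower, 0, was 1 (Tgfb2) with quantile, median and loess normalization, the percentile over detected probes and the deposited table. Members 1.5-fold higher numbered 2, Tgfbr1 (0.75) besides Smad7, with the mean over probes. The count of member genes with probes at least 0.5 apart, whose alternatives were chosen after seeing the data, was 1 with normexp. In the latency list 0 genes were 1.5-fold higher with normexp and with the minimum signal. In the receptor list 1 was higher with quantile normalization and the deposited table. Among SMAD partners 0 were lower with normexp and with the minimum signal, 2 were lower with the percentile over detected probes, and 2 were higher with no filter. In the induced list 3 were higher under each of the 6 other scalings (4 otherwise), and 9 were lower with the minimum signal (11 otherwise, 12 with no filter). Over all genes, 861 were 1.5-fold higher and 953 lower; these were 434 and 409 with normexp, 499 and 421 with the minimum signal, 3518 and 2876 with no filter, and 674 and 1182 with the percentile over detected probes. Past 2-fold, 246 higher and 229 lower became 130 and 65, 158 and 90, 1587 and 1330, and 211 and 281 in that order. The cause of these differences was not tested. Dim probes carry the least certain ratios, and 1 array per group limits all values.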

Other observations

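Transcripts of the branch of TGF-beta signalling that runs through kinases and adaptors instead of SMADs mostly differed little between the arrays. All 14 listed genes were measured, with a median log2 ratio of 0.03; 1 was at least 1.5-fold lower (4.82% of all measured genes were) and 0 were 1.5-fold higher. That gene was Map2k6 (MKK6), a kinase that activates p38, at 1167 in control and 652 in C26 muscle, 1.79-fold lower at -0.84 (error 0.20). Mapk14 (p38 alpha) stood at -0.20 with its brighter probe, and its other probe gave -0.30. Rock1 had -0.17, and the highest were Map2k3 at 0.28, Pard6a at 0.27 and Traf4, printed in copies, at 0.18 (error 0.07). Map3k7 (TAK1), a kinase of this branch, stood at -0.03 (error 0.20) with its brightest probe, and at 0.17 and 0.33 with its other probes.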
